A study of Homo sapiens with 9 samples.

Results

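The genes described here encode the proteins that recognise and splice introns: the SR proteins (SRSF genes), the hnRNP proteins (HNRNP genes), and the protein parts of the spliceosome core (SNRP, SNRNP, SF3A and SF3B genes). They were chosen by symbol: SRSF with a number, HNRNP with letters and an optional number, SNRPA to SNRPG with an optional digit or C, SNRNP with a number, and SF3A or SF3B with a digit. This rule found 63 of the 26485 symbols in the count table, 12 SRSF, 24 hnRNP and 27 spliceosome core genes. Of these, 57 had enough reads to be tested. The other 6 were SRSF12, HNRNPCL2, HNRNPCL3, HNRNPCL4 and the pseudogene HNRNPKP3, which were listed at 0 in all 9 libraries, and HNRNPCL1, with 10 counts in all.

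The cells were MV4;11, a human acute myeloid leukaemia line, untreated and grown in RPMI, in 3 genotypes of the transcription factor MYC with 3 libraries each: parental cells, cells with MYC mutated at K148Q, and cells with MYC mutated at K148R. K148 is a lysine. Glutamine (Q) is often used as a stand-in for an acetylated lysine, and arginine (R) for one that cannot be acetylated. The sample titles code the mutant cells as Q2 and R14. What these codes mean, whether each is 1 clone and whether the libraries of a genotype come from separate cultures was not stated in the labels, so the p-values measure the spread between these libraries, which may be technical. Counts per gene do not show the K148 alleles, so the labels were not checked against them. The comparisons asked how each mutant differed from parental cells and how the mutants differed from each other.

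As background, introns are removed by small nuclear ribonucleoproteins (snRNPs), in which a short RNA is bound by a ring of Sm proteins and by proteins of its own. The U1 snRNP recognises the start of the intron and the U2 snRNP, with SF3A and SF3B, the branch point, before U4/U6 and U5 join as the tri-snRNP. SR proteins mostly promote the use of nearby exons, hnRNP proteins often repress it, and many of both control their own mRNA through exons that lead to its decay. MYC is known to raise the transcription of several splicing genes, among them SRSF1 and Sm protein genes.

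Library totals ran from 13747087 to 18938391 counts, and the splicing genes took between 1.58% and 2.02% of the counts of a library. Values are CPM, counts scaled to library size with TMM factors, given per library in the order of replicates 1, 2 and 3, or as mean ± SD of 3 libraries. All 9 myeloid leukaemia markers examined were present, with summed levels of 1279 to 1296 CPM in parental, 1785 to 1889 in K148Q and 2833 to 2882 in K148R libraries. They did not move together: LYZ went from 161 ± 2.88 to 491 ± 64.5 and 1649 ± 21.5 CPM and makes up most of the higher sum, while FLT3 went from 652 ± 7.97 in parental to 301 ± 2.26 in K148R cells. T cell markers summed to at most 0.248 CPM and B cell markers to at most 6.98 CPM, with CD3E and MS4A1 at 0 in all libraries. Epithelial markers summed to 10.4 to 12.1 CPM in parental and at most 2.58 CPM in mutant libraries, nearly all of it KRT8, with EPCAM at 0. Genes of dividing cells (MKI67, TOP2A, PCNA, MCM2, MCM3 and MCM5) summed to 3676 to 3746 CPM in parental, 3390.0 to 3506 in K148Q and only 602 to 619 in K148R libraries. Each had a lower mean in K148R than in parental cells, but in K148Q cells they did not move together. There MKI67 went from 512 ± 28.7 to 772 ± 36.9 CPM and TOP2A from 1020 ± 19.6 to 670 ± 63.7. The K148Q mean of MCM5 was also higher, and those of PCNA, MCM2 and MCM3 were lower. Transcripts without a poly(A) tail (RN7SK, RMRP and RPPH1) summed to 6.26 to 27.0 CPM in parental, 5.15 to 8.99 in K148Q and 442 to 533 in K148R libraries, nearly all of the K148R value from RN7SK. The part of these differences in the K148R results below was not tested. In bulk RNA, fewer cells of a kind and less RNA per cell cannot be told apart.

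In K148R cells most splicing genes were lower than in parental cells. Of 57 tested, 39 fell (68.4%) and 7 rose (12.3%), where over all 12845 tested genes 37.3% were called lower and 37.8% higher by edgeR's quasi-likelihood test with Benjamini-Hochberg adjustment. In either direction 80.7% of the splicing genes were called, against 75.1% of all genes, so the share called was near the background, the share called lower above it and the share called higher below it. The median log2 fold change of the splicing genes was -0.36, beside -0.0035 over all genes. Falls of 1.5-fold or more were called for 19 splicing genes (beside 24.4% of all genes) and rises of that size for 2 (beside 24.2%). Individual changes ran from -1.27 for SNRPE to 1.55 for SRSF8.

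Fewer of these genes were called in K148Q cells. Against parental cells 21 of 57 fell (36.8%, with 26.3% of all genes called lower) and 6 rose (10.5%, with 27% of all genes called higher). Called genes made up 47.4% of the splicing genes, beside 53.3% of all genes. The median was -0.051, beside -0.0072 over all genes. No rise and only 3 falls reached 1.5-fold, those of SNRPE, HNRNPLL and SNRNP48 (beside which 12.1% of all genes fell and 10.4% rose by that much). Without K148Q replicate 3, a library that stood apart from the other K148Q libraries, 14 splicing genes were called higher and 24 lower (66.7% in all), where the calls over all genes also went up, to 64.2% (32.4% higher and 31.9% lower).

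Tested directly, K148R cells had 35 splicing genes lower and 11 higher than K148Q cells (beside 34.5% and 36.6% of all genes, and 80.7% against 71% in either direction), with a median of -0.24 beside 0.017 over all genes. Of these, 10 were lower and 3 higher by at least 1.5-fold (beside 20.8% and 22.3% of all genes). Both comparisons with parental cells share the parental libraries. HNRNPH1, HNRNPH3, HNRNPM, SF3A2, SF3B5 and SNRNP200 were called in neither of them with all libraries kept. Of these, HNRNPM and SNRNP200 were not called between the mutants either, HNRNPM with 3 near-equal means of 513, 519 and 536 CPM. Without K148Q replicate 3, all of these but HNRNPM were called against parental cells in at least 1 mutant.

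**Figure D1:**
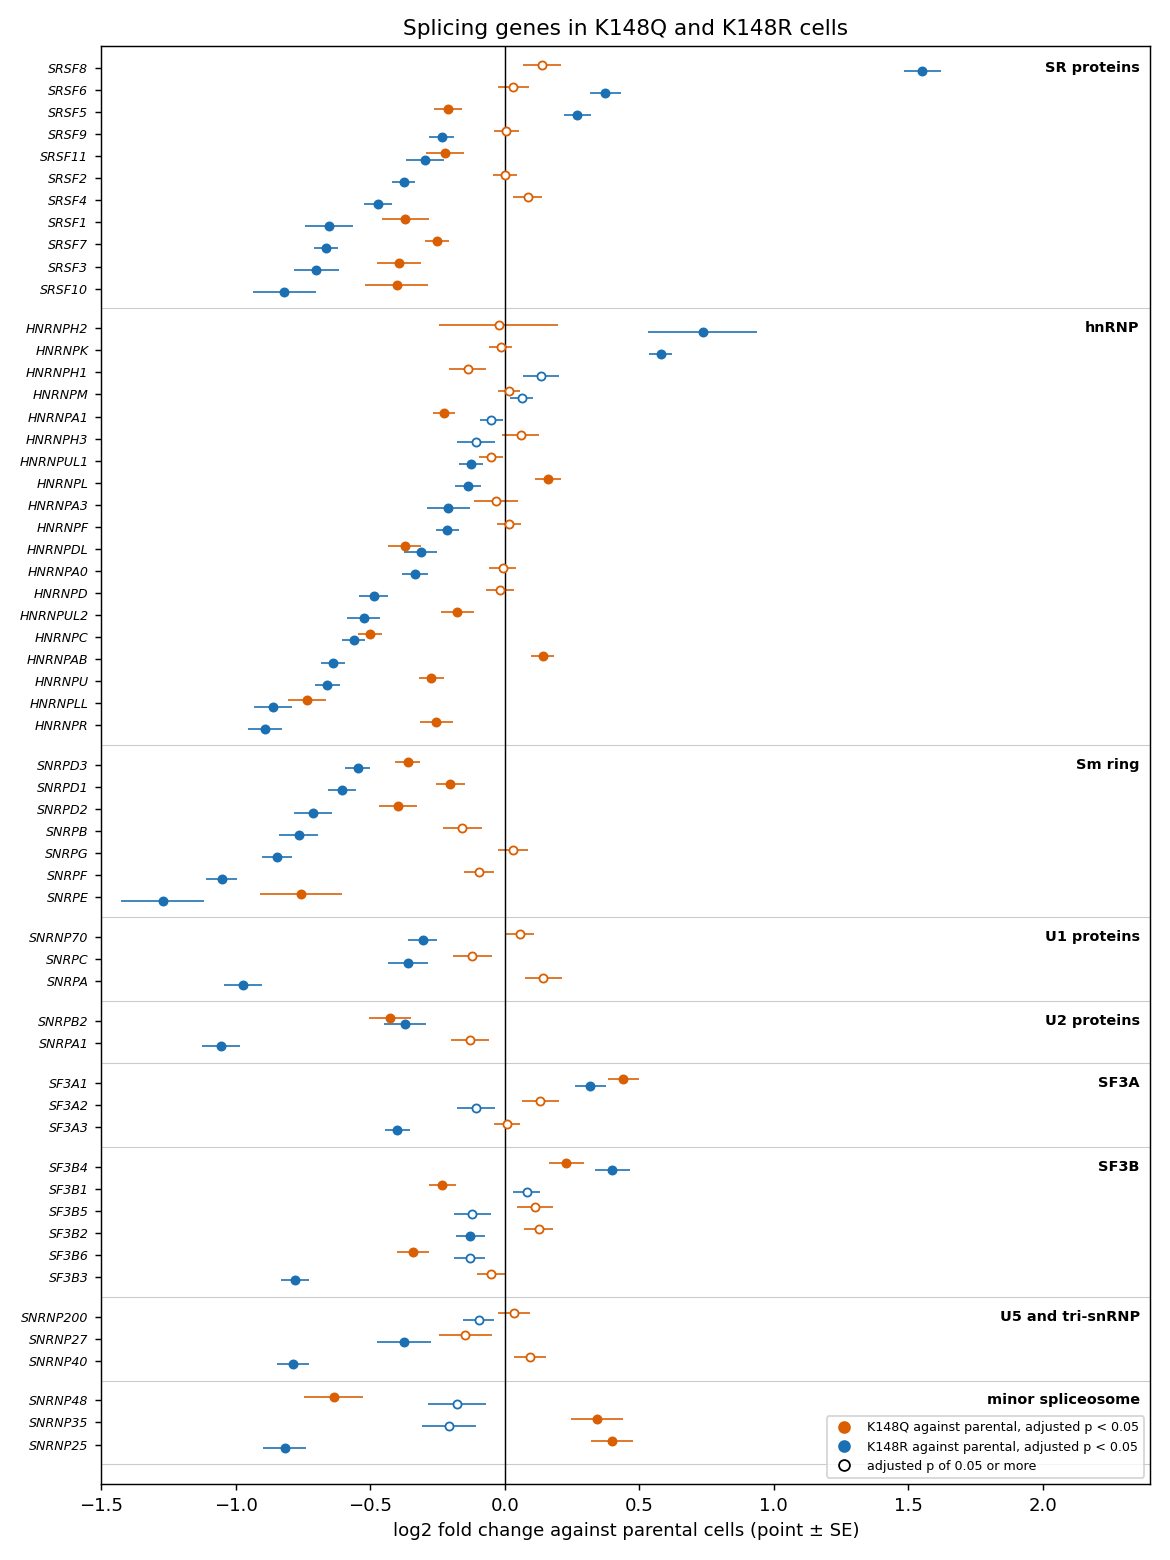
Log2 fold change of each of the 57 tested splicing genes against parental cells (horizontal axis, point ± SE) in K148Q (orange) and K148R (blue) cells, by group; filled points had an adjusted p under 0.05. In K148R cells 39 points lie filled on the left of 0 and 7 on the right, with all 7 Sm ring genes on the left and SRSF8 farthest right at 1.55.

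MYC binds the E-box CACGTG, so the members' promoters (250 bases before to 50 after the RefSeq start, GRCh38.p14) were searched for it. The motif reads the same on both strands. RefSeq promoters were matched for 52 of the 57 tested members, all but HNRNPA1, SNRNP35, SRSF2, SNRPD1 and SF3B3. An E-box was present in 9 of the 52 (17.3%), beside 10.3% of 9414 promoters of tested genes and 7.43% of all 27305 promoters. It was found with 4 of 36 members lower in K148R cells (11.1%), 1 of 7 higher (14.3%) and 4 of 9 not called (44.4%). The related CACGCG, searched on both strands, was in 16 of the 52 (30.8%), beside 18.8% of promoters of tested genes. The stretches below are the parts of 4 promoters outside annotated exons, with E-boxes in capitals, shown because their genes went different ways in K148R cells: HNRNPD fell, HNRNPH2 rose, SF3B1 was not called, and SNRPA1, without an E-box, fell by more than HNRNPD.
HNRNPD (chr4:82373992-82374118, minus strand): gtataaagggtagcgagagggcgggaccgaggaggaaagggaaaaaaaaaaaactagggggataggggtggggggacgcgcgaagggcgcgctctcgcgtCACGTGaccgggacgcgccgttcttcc
HNRNPH2 (chrX:101408013-101408221, plus strand): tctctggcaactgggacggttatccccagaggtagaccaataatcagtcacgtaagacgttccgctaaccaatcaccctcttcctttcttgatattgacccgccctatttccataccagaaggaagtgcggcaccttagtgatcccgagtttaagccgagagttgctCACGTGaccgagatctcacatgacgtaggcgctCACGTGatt
SF3B1 (chr2:197435092-197435278, minus strand): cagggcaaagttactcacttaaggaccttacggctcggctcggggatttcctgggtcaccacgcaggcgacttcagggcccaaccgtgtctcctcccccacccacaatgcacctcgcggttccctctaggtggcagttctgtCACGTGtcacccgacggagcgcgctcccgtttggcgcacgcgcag
SNRPA1 (chr15:101295283-101295418, minus strand): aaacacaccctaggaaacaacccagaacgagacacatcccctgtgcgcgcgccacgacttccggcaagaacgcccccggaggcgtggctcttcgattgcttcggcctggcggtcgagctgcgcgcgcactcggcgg
The E-box of HNRNPD starts 27 bases before the RefSeq start and that of SF3B1 108 bases before it. HNRNPH2 has a pair, 42 and 9 bases before its start. These matches are letters in a window, and no binding was measured.

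All 7 genes of the Sm ring, the protein collar of most spliceosomal snRNPs, fell in K148R cells, 6 of them by at least 1.5-fold (over all genes 37.3% were called lower, 24.4% by that much). Their summed level was 1712 ± 19.2 CPM (parental), 1407 ± 32.3 (K148Q) and 1021 ± 33 (K148R). SNRPE (chromosome 1, 203861603 to 203870550), which encodes SmE, was at 154, 161 and 150.2 CPM (parental), 75.0, 79.0 and 121 (K148Q) and 60.2, 63.0 and 69.7 (K148R). The K148Q libraries were all below the parental ones, with replicate 3 between them and the other K148Q libraries. SNRPE fell in K148R cells (log2 fold change -1.27 ± 0.15 SE, adjusted p = 2.0e-05) and in K148Q cells (log2 fold change -0.76 ± 0.15 SE, adjusted p = 0.0017). Without K148Q replicate 3 its K148Q value was -1.0 ± 0.057 SE. That library was singled out because it stood apart in these same data. The smaller SE follows in part from leaving it out, so no p-value is given here. The same limit holds for the other values below that leave it out.

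SNRPF (chromosome 12, 95858928 to 95903828), which encodes SmF, was at 105, 103 and 110.3 CPM (parental), 98.5, 102 and 98.4 (K148Q) and 51.4, 51.0 and 51.5 (K148R). Its K148R libraries were nearly identical and far below the other 6. The fold change was -1.05 ± 0.058 SE against parental (adjusted p = 3.8e-10) and -0.96 against K148Q cells (adjusted p = 1.4e-09), while K148Q against parental gave -0.095 (adjusted p = 0.17). SNRPG (chromosome 2, 70281362 to 70293771), which encodes SmG, was at 139, 139.7 and 136 CPM (parental), 139, 143 and 140.3 (K148Q) and 77.7, 80.0 and 72.7 (K148R). Parental and K148Q libraries of SNRPG overlapped (0.03, adjusted p = 0.66) and K148R libraries were lower (log2 fold change -0.84 ± 0.056 SE, adjusted p = 3.4e-09).

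The other 4 Sm genes fell less steeply in K148R cells. SNRPB (chromosome 20, 2461634 to 2470853), which encodes SmB and its longer form and had the highest level per kilobase of the ring, was at 349, 357 and 339 CPM (parental), 331, 335 and 271 (K148Q) and 217, 201 and 196 (K148R). It fell in K148R cells (log2 fold change -0.77 ± 0.074 SE, adjusted p = 2.2e-07), and in K148Q cells replicate 3 was the lowest (-0.16, adjusted p = 0.083). SNRPD2 (chromosome 19, 45687454 to 45692569), which encodes SmD2, was at 416, 423 and 395 CPM (parental), 328, 333 and 278 (K148Q) and 263, 260.4 and 230.2 (K148R). The 3 groups of SNRPD2 did not overlap, and it fell in K148Q (log2 fold change -0.40 ± 0.071 SE, adjusted p = 3.2e-04) and in K148R cells (log2 fold change -0.71 ± 0.072 SE, adjusted p = 3.6e-07). SNRPD1 (chromosome 18, 21612267 to 21633524), which encodes SmD1, was at 209, 203 and 208 CPM (parental), 184, 171 and 184 (K148Q) and 138, 139 and 131 (K148R). It too fell in both, by 0.20 and 0.60 on the log2 scale (adjusted p = 0.0053 and 8.9e-08). SNRPD3, which encodes SmD3, had the smallest fall in K148R cells, from 347 ± 6.61 to 237 ± 4.92 CPM (log2 fold change -0.55 ± 0.047 SE, adjusted p = 6.3e-08). One ring holds 1 copy of each protein, and the 7 mRNAs fell by between 0.55 and 1.27 on the log2 scale.

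The 3 U1 proteins fell together in K148R cells but not to the same extent, and none was called in K148Q cells. SNRPA (chromosome 19, 40750637 to 40765389), which encodes U1-A, the protein on a stem-loop of U1 RNA, was at 136, 135 and 132 CPM (parental), 153, 158 and 134 (K148Q) and 70.8, 71.1 and 63.1 (K148R). Every K148R library was well below the parental ones (log2 fold change -0.97 ± 0.071 SE, adjusted p = 9.4e-09). SNRNP70 (chromosome 19, 49085419 to 49108605), which encodes the 70K protein and had the highest level per kilobase of the 3, was at 271, 264 and 271 CPM (parental), 286, 286 and 268 (K148Q) and 229, 220.3 and 204 (K148R). Its fall in K148R cells was smaller (log2 fold change -0.31 ± 0.054 SE, adjusted p = 1.3e-04). SNRPC, which encodes U1-C, a contact of the 5′ splice site, went from 129 ± 3.11 to 101 ± 10.2 CPM (log2 fold change -0.36 ± 0.074 SE, adjusted p = 4.8e-04).

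The U2-specific pair split by genotype. SNRPA1 (chromosome 15, 101281510 to 101295282), which encodes U2-A′, was at 74.8, 77.5 and 69.8 CPM (parental), 65.5, 69.2 and 68.2 (K148Q) and 35.0, 38.2 and 33.7 (K148R). It fell in K148R cells (log2 fold change -1.05 ± 0.072 SE, adjusted p = 4.5e-09), and the K148Q value was not called (-0.13, adjusted p = 0.13). SNRPB2, whose product U2-B″ binds U2 RNA together with U2-A′, fell to like levels in both mutants, from 136 ± 2.00 to 101 ± 13.6 CPM in K148Q and 105 ± 2.97 in K148R cells. The mutants were not called different for SNRPB2 (log2 fold change 0.056 ± 0.079 SE, adjusted p = 0.54), but without K148Q replicate 3 they were, at 0.15 (adjusted p = 0.0063).

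SF3A and SF3B, which bind the branch point with U2, did not move as units. SF3B3 (chromosome 16, 70523788 to 70577670), a large scaffold subunit, was at 469.5, 449 and 462 CPM (parental), 458, 462 and 413 (K148Q) and 263, 275 and 267 (K148R). The K148R libraries were far below the rest (log2 fold change -0.78 ± 0.053 SE, adjusted p = 4.0e-09). SF3B4, a subunit that contacts RNA near the branch point, rose instead, from 100.3 ± 3.45 to 118 ± 8.33 CPM in K148Q (log2 fold change 0.23 ± 0.064 SE, adjusted p = 0.0074) and 132 ± 4.67 in K148R cells (log2 fold change 0.40 ± 0.063 SE, adjusted p = 4.2e-05). SF3B1, the subunit that holds the branch point adenosine and is mutated in several blood cancers, fell slightly in K148Q cells, from 663 ± 2.87 to 565 ± 23.9 CPM (log2 fold change -0.23 ± 0.051 SE, adjusted p = 0.0015), and was at 702 ± 39.5 in K148R cells (0.082, adjusted p = 0.15). SF3B5 (chromosome 6, 144094881 to 144095573), a small subunit with the highest level per kilobase of SF3B, was at 94.1, 99.0 and 101 CPM (parental), 108, 112 and 98.2 (K148Q) and 94.1, 92.4 and 84.1 (K148R). It was called in neither mutant against parental cells with all libraries kept. SF3B6, which contacts the branch point region, fell in K148Q cells (log2 fold change -0.34 ± 0.059 SE, adjusted p = 2.3e-04, against -0.13 in K148R, adjusted p = 0.057), and the direct test gave 0.21 for K148R against K148Q (adjusted p = 0.0052). SF3B2 fell in K148R cells (-0.13, adjusted p = 0.044).

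Among the SF3A genes, SF3A1 rose in both mutants, from 229.7 ± 5.02 to 312 ± 23.0 CPM in K148Q (log2 fold change 0.44 ± 0.057 SE, adjusted p = 1.5e-05) and 286 ± 6.38 in K148R cells (log2 fold change 0.32 ± 0.057 SE, adjusted p = 1.3e-04). SF3A3 (chromosome 1, 37956975 to 37990921), the SF3A gene with the highest level per kilobase, was at 363, 361 and 348 CPM (parental), 364, 365 and 350.1 (K148Q) and 273, 278 and 262 (K148R). Its parental and K148Q libraries overlapped and the K148R libraries were lower (log2 fold change -0.40 ± 0.047 SE, adjusted p = 2.3e-06). SF3A2 was called in neither mutant against parental cells with all libraries kept (0.13 and -0.11).

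Of the U5 and tri-snRNP genes, SNRNP40 (chromosome 1, 31259568 to 31296782), a WD-repeat protein of U5, was at 135, 133 and 128 CPM (parental), 144, 146 and 133 (K148Q) and 73.7, 75.8 and 80.0 (K148R). The K148R libraries stood clear of both other groups (log2 fold change -0.79 ± 0.06 SE, adjusted p = 1.6e-08). SNRNP200 (chromosome 2, 96274336 to 96305515), which encodes the helicase that unwinds U4 from U6, was at 495, 466 and 472 CPM (parental), 518, 508 and 441 (K148Q) and 448, 455 and 438 (K148R). It was called in neither mutant against parental cells with all libraries kept (0.034 and -0.097). SNRNP27 was at 33.9, 30.6 and 26.2 CPM in parental, K148Q and K148R cells and fell in K148R cells (log2 fold change -0.37 ± 0.099 SE, adjusted p = 0.0032).

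The 3 proteins of the minor spliceosome, which removes a rare class of introns, were not called alike in either mutant. SNRNP25 (chromosome 16, 53010 to 57669) was at 88.0, 92.3 and 86.0 CPM (parental), 124, 119.5 and 108 (K148Q) and 54.1, 52.3 and 44.6 (K148R). It rose in K148Q (log2 fold change 0.40 ± 0.077 SE, adjusted p = 5.5e-04) and fell in K148R cells (log2 fold change -0.82 ± 0.079 SE, adjusted p = 2.4e-07), which gave the largest difference below 0 among the 57 genes between the mutants (log2 fold change -1.22 ± 0.079 SE, adjusted p = 3.2e-09). SNRNP48 (chromosome 6, 7590199 to 7611967) was at 35.3, 32.8 and 34.4 CPM (parental), 18.4, 21.3 and 26.2 (K148Q) and 28.5, 30.8 and 31.5 (K148R). It fell in K148Q cells (log2 fold change -0.64 ± 0.11 SE, adjusted p = 2.1e-04), while the K148R value was not called (-0.18, adjusted p = 0.15). SNRNP35 rose in K148Q cells from 13.8 ± 0.987 to 17.5 ± 0.363 CPM (log2 fold change 0.34 ± 0.097 SE, adjusted p = 0.0084) and was at 11.9 ± 0.783 in K148R cells.

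All 11 tested SR protein genes were called in K148R cells, 8 lower (72.7%, beside 37.3% of all genes) and 3 higher (27.3%, beside 37.8%). SRSF8 (chromosome 11, 95067197 to 95071224), an intron-poor relative of SRSF2, was at 29.8, 30.9 and 32.8 CPM (parental), 34.9, 33.5 and 34.5 (K148Q) and 87.5, 93.6 and 93.2 (K148R). Its K148R libraries were far above the other 6 (log2 fold change 1.55 ± 0.068 SE, adjusted p = 3.0e-11), while K148Q against parental was not called (0.14, adjusted p = 0.12). SRSF2 itself went the other way in K148R cells, from 437 ± 3.59 to 337 ± 8.24 CPM (log2 fold change -0.38 ± 0.044 SE, adjusted p = 1.8e-06), with 437 ± 3.80 in K148Q cells. SRSF6 rose in K148R cells from 260.3 ± 3.65 to 337 ± 14.6 CPM (log2 fold change 0.37 ± 0.058 SE, adjusted p = 3.7e-05). SRSF5 rose in K148R (log2 fold change 0.27 ± 0.05 SE, adjusted p = 2.0e-04) and fell in K148Q cells (log2 fold change -0.21 ± 0.051 SE, adjusted p = 0.0029), from 243 ± 2.42 CPM in parental to 293 ± 12.4 and 209.7 ± 6.52.

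SRSF1 (chromosome 17, 58003360 to 58007346), among the best studied SR proteins and a factor that can promote tumours when overproduced, was at 644, 646 and 675 CPM (parental), 458, 458 and 605 (K148Q) and 410.1, 419.6 and 420.3 (K148R). K148Q replicates 1 and 2 lay near the K148R libraries and replicate 3 near the parental ones. SRSF1 fell in K148R (log2 fold change -0.65 ± 0.088 SE, adjusted p = 1.9e-05) and in K148Q cells (log2 fold change -0.37 ± 0.088 SE, adjusted p = 0.0035), the latter -0.51 without replicate 3. SRSF3 (chromosome 6, 36594353 to 36605600), a small SR protein also active in mRNA export, was at 585, 582 and 585 CPM (parental), 407, 406 and 521 (K148Q) and 337, 363 and 378 (K148R). The same library stood apart, and the falls were -0.70 in K148R (adjusted p = 4.3e-06) and -0.39 in K148Q cells (adjusted p = 0.0014), the latter -0.51 without replicate 3. SRSF10 (chromosome 1, 23964804 to 23980927), a splicing repressor when dephosphorylated, was at 241, 250.2 and 259.8 CPM (parental), 163, 169.8 and 236 (K148Q) and 134, 139 and 152 (K148R). It had the largest fall of the SR genes in K148R cells (log2 fold change -0.82 ± 0.12 SE, adjusted p = 5.6e-05). In K148Q cells its log2 fold change was -0.40 (adjusted p = 0.013), or -0.58 without replicate 3.

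SRSF7 (chromosome 2, 38743599 to 38751494), which carries a zinc knuckle and serves in mRNA export, was at 336, 339.8 and 333 CPM (parental), 277, 281 and 289 (K148Q) and 211, 213 and 213 (K148R). Its 3 groups did not overlap, with falls in K148Q (log2 fold change -0.25 ± 0.045 SE, adjusted p = 3.2e-04) and K148R cells (log2 fold change -0.66 ± 0.046 SE, adjusted p = 4.8e-09). SRSF9 (chromosome 12, 120461668 to 120469793), the SR gene with the highest level per kilobase, was at 243, 248 and 250.2 CPM (parental), 245, 252 and 247 (K148Q) and 215, 209.6 and 205 (K148R). It fell slightly in K148R cells (log2 fold change -0.23 ± 0.047 SE, adjusted p = 3.9e-04). SRSF4 fell in K148R cells (-0.47, adjusted p = 1.3e-06) and SRSF11 in both mutants (-0.22 in K148Q, adjusted p = 0.017, and -0.30 in K148R, adjusted p = 0.0016). Genes of other names overlap 62.1% of the coding-transcript exon bases of SRSF1, 41.2% of those of SRSF9 (GATC) and 34.7% of those of SRSF2 (MFSD11 and MIR636), and whether counting used strand is unknown.

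Of 19 tested hnRNP genes, 13 fell (68.4%, beside 37.3% of all genes) and 2 rose (10.5%, beside 37.8%) in K148R cells. In K148Q cells 7 fell (36.8%, beside 26.3% of all genes) and 2 rose (10.5%, beside 27%). Called genes were 78.9% and 47.4% of the 19, beside 75.1% and 53.3% of all genes. HNRNPK (chromosome 9, 83968083 to 83980616), a poly(C)-binding protein, had the highest level per kilobase of the 19 genes. It was at 878, 856 and 843 CPM (parental), 829, 850.0 and 872 (K148Q) and 1262, 1312 and 1277 (K148R). The 3 K148R libraries were the highest (log2 fold change 0.58 ± 0.042 SE, adjusted p = 9.4e-09), and parental and K148Q libraries overlapped. HNRNPH2 (chromosome X, 101408295 to 101414133) is a relative of HNRNPH1 that had few counts here. HNRNPH2 was at 3.74, 2.89 and 2.62 CPM (parental), 2.41, 3.90 and 2.85 (K148Q) and 5.55, 5.69 and 4.21 (K148R). It rose in K148R cells (log2 fold change 0.74 ± 0.20 SE, adjusted p = 0.0043), while HNRNPH1 was at 459, 417 and 504 CPM. With all libraries kept, HNRNPH1 was called in neither mutant against parental cells.

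HNRNPR (chromosome 1, 23303771 to 23344336), an RNA-binding protein close to SYNCRIP, was at 392, 398 and 404 CPM (parental), 319, 311 and 370.3 (K148Q) and 209.9, 216 and 218 (K148R). It had the largest fall of these 19 hnRNP genes in K148R cells (log2 fold change -0.89 ± 0.062 SE, adjusted p = 5.6e-09). Its fall in K148Q cells was smaller (log2 fold change -0.26 ± 0.061 SE, adjusted p = 0.0029). HNRNPLL (chromosome 2, 38561978 to 38603586), known for switching CD45 splicing in lymphocytes, was at 105, 110.4 and 104 CPM (parental), 58.6, 63.6 and 69.3 (K148Q) and 59.6, 55.6 and 60.1 (K148R). All 6 mutant libraries were below all parental ones, with falls of like size in K148Q (log2 fold change -0.74 ± 0.071 SE, adjusted p = 8.0e-07) and K148R cells (log2 fold change -0.86 ± 0.071 SE, adjusted p = 3.6e-08), and the mutants were not called different (log2 fold change -0.13 ± 0.072 SE, adjusted p = 0.13). HNRNPC, which coats nascent transcripts as a tetramer, fell likewise in both, from 1253 ± 9.55 to 886 ± 35.5 CPM in K148Q (log2 fold change -0.50 ± 0.044 SE, adjusted p = 2.9e-07) and 849 ± 18.2 in K148R cells (log2 fold change -0.56 ± 0.044 SE, adjusted p = 2.0e-08).

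HNRNPU (chromosome 1, 244840638 to 244864560), a nuclear matrix protein that binds chromatin and RNA, was at 1806, 1807 and 1806 CPM (parental), 1445, 1439 and 1601 (K148Q) and 1119.6, 1161 and 1149.5 (K148R). The groups did not overlap, with falls in K148Q (log2 fold change -0.27 ± 0.047 SE, adjusted p = 2.1e-04) and K148R cells (log2 fold change -0.66 ± 0.047 SE, adjusted p = 7.3e-09). HNRNPAB (chromosome 5, 178204507 to 178211163) was at 357, 362 and 356 CPM (parental), 388, 395 and 402 (K148Q) and 230.2, 229 and 232 (K148R). It rose in K148Q (log2 fold change 0.14 ± 0.044 SE, adjusted p = 0.015) and fell in K148R cells (log2 fold change -0.64 ± 0.044 SE, adjusted p = 5.9e-09). HNRNPL, a repressor that binds CA repeats, was called in the same directions, from 404 ± 3.4 to 452 ± 23.6 CPM in K148Q and 368 ± 4.57 in K148R cells (adjusted p = 0.012 and 0.021).

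No other gene of these 19 was called with a 1.5-fold change in any of the 3 comparisons. HNRNPA1, a widely studied splicing repressor, fell in K148Q cells, from 1134 ± 21.2 to 970.5 ± 29.1 CPM (log2 fold change -0.22 ± 0.042 SE, adjusted p = 4.3e-04), and was at 1096 ± 17.9 in K148R cells (-0.05, adjusted p = 0.3). Reads of HNRNPA1 and of its many near-identical pseudogenes cannot be assigned with certainty. HNRNPD (AUF1, which binds AU-rich elements) and HNRNPA0 fell in K148R cells (-0.49 and -0.33, adjusted p = 9.2e-07 and 2.2e-05) and were not called in K148Q cells. Other genes overlap 45.7% of the coding-transcript exon bases of HNRNPUL2, 22.3% of those of HNRNPL, 20.3% of SF3A2, 17.0% of SNRPD3, 16.3% of HNRNPH2, and between 10.5% and 13.2% of those of HNRNPAB, HNRNPM, SNRNP27 and SNRPB. HNRNPDL and HNRNPUL2 fell in both mutants, HNRNPDL by 0.37 in K148Q and 0.31 in K148R cells on the log2 scale. HNRNPF, HNRNPA3 and HNRNPUL1 fell in K148R cells, with log2 fold changes from -0.21 to -0.12.

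**Figure D2:**
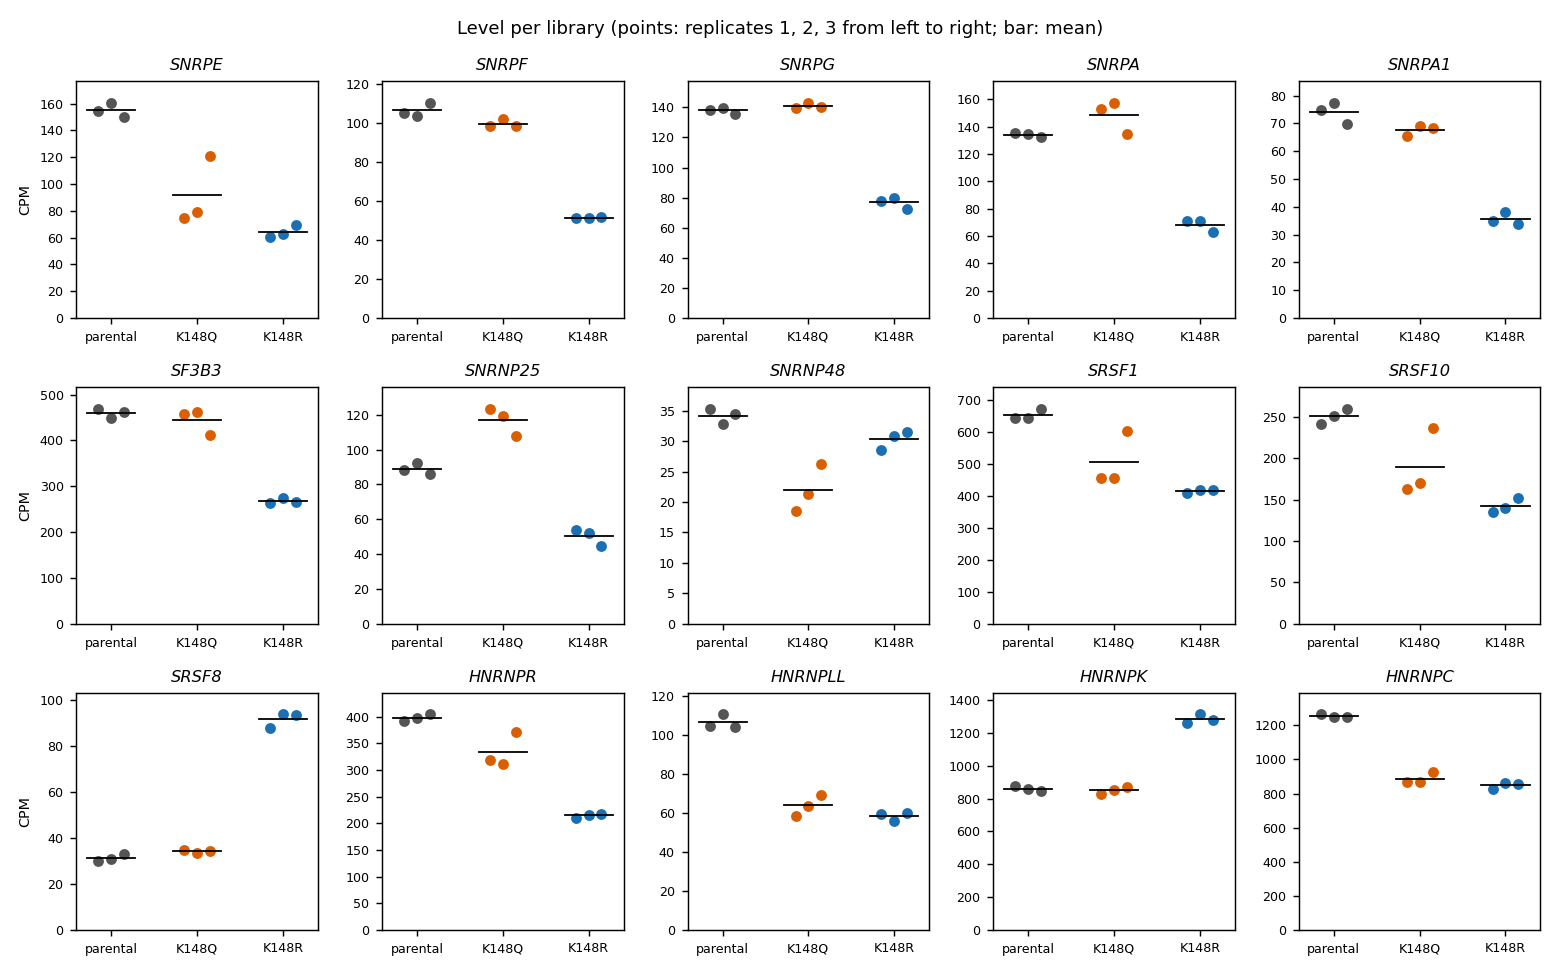
Level (CPM, vertical axis from 0) of 15 splicing genes in each of the 9 libraries; points are replicates 1, 2 and 3 from left to right and bars are group means. SNRPF, SNRPG, SNRPA, SNRPA1 and SF3B3 are low in K148R libraries only, SRSF8 and HNRNPK are high there, HNRNPLL and HNRNPC are low in both mutants, and K148Q replicate 3 lies above the other K148Q libraries for SNRPE, SRSF1 and SRSF10.

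The SR protein genes summed to 3376 ± 36.1 CPM (parental), 2931 ± 242 (K148Q) and 2657 ± 56.7 (K148R). The hnRNP genes summed to 10934 ± 56.6, 9880.3 ± 392 and 9344 ± 122 CPM. The 27 core genes summed to 5708 ± 39.6, 5424 ± 169.9 and 4459 ± 71.6 CPM. The K148R sum differed from the parental one by -40.4% for the Sm ring, -32.9% for the U2 pair, -32.3% for the minor spliceosome genes and -27.4% for the U1 genes, and by only -5.39% for SF3A and -9.45% for SF3B. In K148Q cells the sum was above parental by 14.5% for the minor spliceosome genes and 13.6% for SF3A, 810.4 ± 43.2 against 714 ± 10.3 CPM. Sums are dominated by the most abundant genes of a group.

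**Figure D3:**
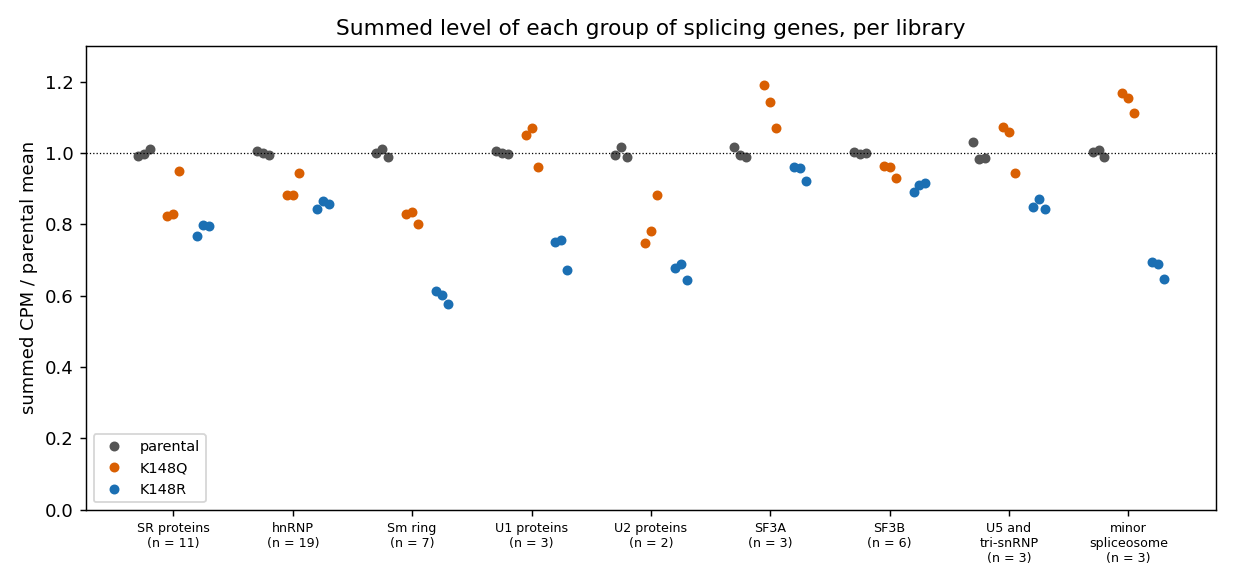
Summed CPM of each group of splicing genes in each library, divided by the mean of the 3 parental libraries (vertical axis from 0; points are libraries in the order of replicates 1, 2 and 3; n is the number of genes). The K148R libraries are lowest for the Sm ring and closest to parental for SF3A and SF3B, and K148Q replicate 3 stands above the other K148Q libraries for SR and hnRNP genes and below them for U1 and SF3A genes.

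Measured against the mean of K148Q replicates 1 and 2, K148Q replicate 3 was higher by over 0.2 on the log2 scale for 13 of the 57 genes, with a range over all 57 from -0.299 (SNRPB) to 0.654 (SNRPE). The longest coding transcripts of these 13 had a median GC content of 39.0%, and those of the other 44 genes 48.7%. Across the 57 genes, which share these libraries, the deviation had a Spearman correlation of -0.764 and a Pearson correlation of -0.721 with GC content. SNRPB, SNRPD2, SF3A2, SNRNP200 and SNRPA were lower by over 0.2. The median deviation was 0.0325 over the 57 genes and -0.0395 over all tested genes. The share over 0.2 and the correlation with GC content were not computed over all genes. Whether either is particular to splicing genes was not tested. Leaving K148Q replicate 3 out kept all 27 calls in K148Q against parental cells. It added 8 higher calls (SF3A2, SF3B2, SF3B5, SNRNP200, SNRNP40, SNRNP70, SNRPA and SRSF4) and 3 lower ones (HNRNPA3, HNRNPH1 and SNRNP27). In K148R against parental cells, where neither group lost a library, all 46 calls were kept and 9 added. The added ones were HNRNPH1 and SF3B1 (higher) and HNRNPH3, SF3A2, SF3B5, SF3B6, SNRNP200, SNRNP35 and SNRNP48 (lower). For SNRNP200 the log2 fold change went from -0.097 to -0.105 and the SE from 0.059 to 0.033. All libraries share 1 estimate of spread, so these added calls are not separate evidence about K148R cells. In K148R against K148Q cells the calls of SF3B4 (higher) and HNRNPH3 (lower) were lost and 5 were added. Over all tested genes the calls also went up, from 53.3% to 64.2% in K148Q and from 75.1% to 80.1% in K148R against parental cells. Between the mutants they went from 71% to 74.4%. The shares of the 57 genes called without K148Q replicate 3 were 66.7%, 96.5% and 86% in the same order.

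**Figure D4:**
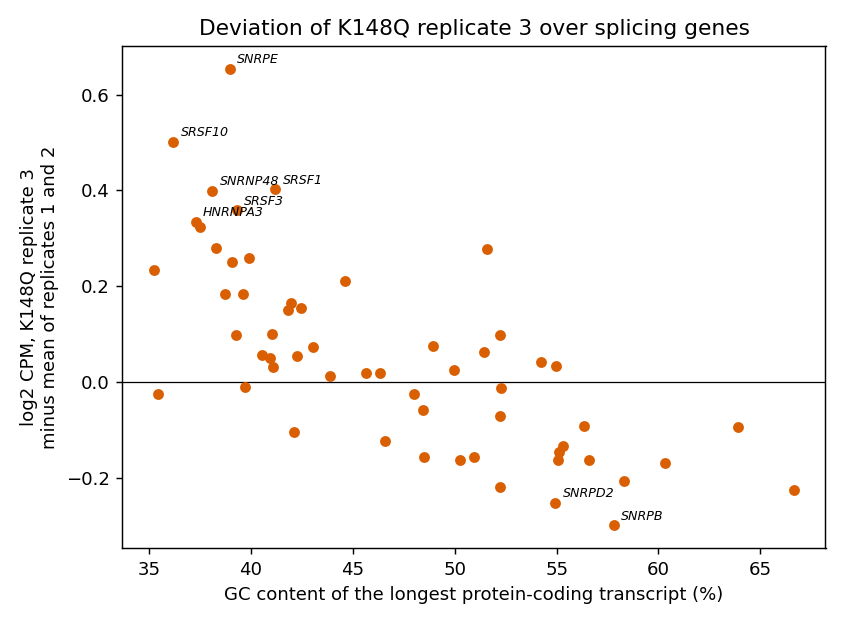
Deviation of K148Q replicate 3 from the mean of K148Q replicates 1 and 2 (vertical axis, log2 CPM) against the GC content of the longest protein-coding transcript (horizontal axis, %) for the 57 tested splicing genes. SNRPE, SRSF10, SRSF1 and SNRNP48 lie highest, at low GC content, and SNRPB and SNRPD2 lowest.

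Ratios of counts between a pair of genes within a library do not depend on the scaling of libraries. They are not per length, so only their change between libraries can be read, and the 6 pairs were chosen after their values were seen. With 3 libraries against 3 an exact permutation test cannot give p below 0.1, so the values are given without a test. SRSF1 and HNRNPA1, which oppose each other at many 5′ splice sites, had a count ratio of 0.572, 0.558 and 0.604 (parental), 0.483, 0.477 and 0.603 (K148Q) and 0.381, 0.380 and 0.380 (K148R). The K148R libraries were lowest and almost identical, and K148Q replicate 3 lay among the parental ones. SRSF8 over SRSF2 was 0.0688, 0.0708 and 0.0746 (parental), 0.0805, 0.0768 and 0.0782 (K148Q) and 0.268, 0.274 and 0.274 (K148R), so the K148R values stood far above all others. SF3B4 over SF3B3, subunits of 1 complex, was 0.212, 0.232 and 0.210 (parental), 0.274, 0.256 and 0.264 (K148Q) and 0.523, 0.475 and 0.483 (K148R).

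HNRNPL over its relative HNRNPLL was 3.90, 3.64 and 3.87 (parental), 7.96, 7.30 and 6.12 (K148Q) and 6.23, 6.52 and 6.14 (K148R). All 6 mutant libraries were above all 3 parental ones. HNRNPK over HNRNPU was 0.486, 0.474 and 0.467 (parental), 0.573, 0.591 and 0.545 (K148Q) and 1.13, 1.13 and 1.11 (K148R). Only in the K148R libraries did HNRNPK have more counts than HNRNPU. SNRPE over SNRPG, both of the Sm ring, was 1.11, 1.15 and 1.11 (parental), 0.538, 0.552 and 0.863 (K148Q) and 0.775, 0.787 and 0.959 (K148R), with the widest spread in K148Q libraries.

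**Figure D5:**
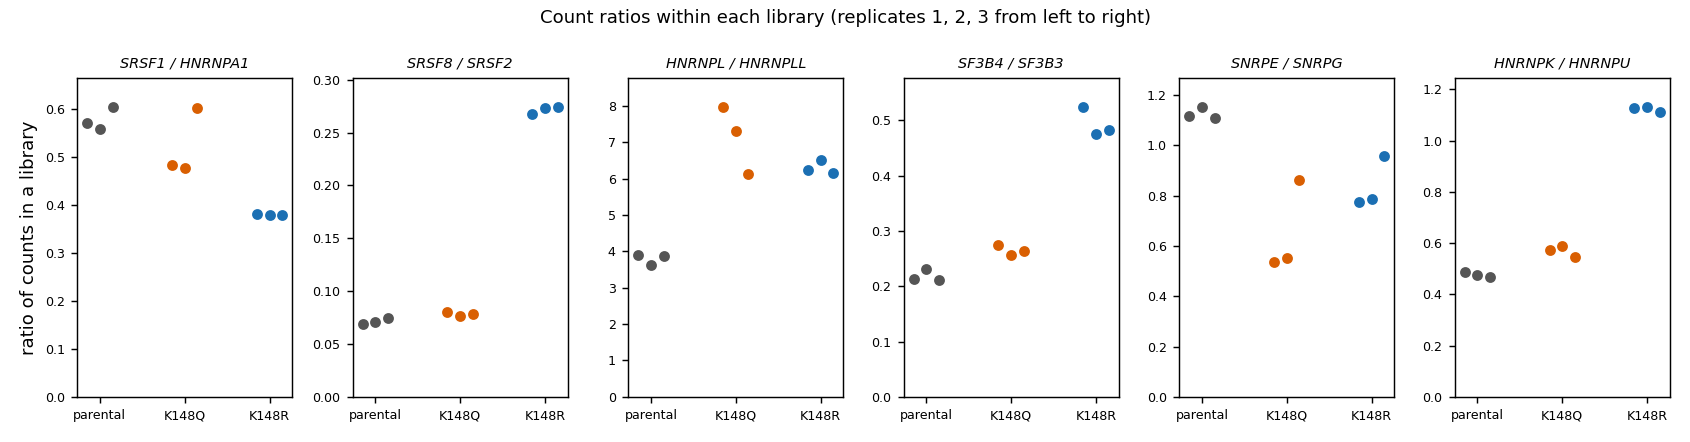
Ratio of counts between paired splicing genes within each library (vertical axes from 0; points are replicates 1, 2 and 3 from left to right). SRSF1/HNRNPA1 is lowest and SRSF8/SRSF2, SF3B4/SF3B3 and HNRNPK/HNRNPU highest in the K148R libraries, and HNRNPL/HNRNPLL is higher in all 6 mutant libraries than in parental ones.

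A further list of 125 splicing genes outside the symbol rule, written from textbook knowledge, had 120 tested members. In K148R against parental cells 63 fell (52.5%, beside 37.3% of all genes) and 35 rose (29.2%, beside 37.8%), with a median of -0.21. In K148Q against parental cells 39 fell (32.5%, beside 26.3% of all genes) and 27 rose (22.5%, beside 27%), with a median of -0.00076, and without K148Q replicate 3 those counts were 47 and 41 (31.9% and 32.4% of all genes in that fit). Between the mutants 57 were lower (47.5%, beside 34.5% of all genes) and 28 higher in K148R cells (23.3%, beside 36.6%). All 7 genes of the LSM ring, the Sm-like ring of U6, fell by at least 1.5-fold in K148R cells (beside 24.4% of all genes). Among them were LSM4 (264 to 104 CPM, adjusted p = 2.2e-11) and LSM2 (74.4 to 30.5 CPM, adjusted p = 5.9e-10). In the snRNP assembly group 8 of 12 fell in K148R cells (66.7%, beside 37.3% of all genes) and 2 rose (16.7%, beside 37.8%). CLNS1A, a chaperone of Sm proteins, fell from 373 ± 1.88 CPM in parental to 237 ± 6.47 in K148Q and 154 ± 2.60 in K148R cells (adjusted p = 4.0e-08 and 4.8e-12). GEMIN2, a partner of SMN in Sm ring assembly, fell in K148R cells from 20.4 ± 0.673 to 4.24 ± 0.673 CPM (log2 fold change -2.27 ± 0.12 SE, adjusted p = 3.0e-10). It also fell in K148Q cells, to 13.4 ± 0.931 CPM (-0.61, adjusted p = 2.4e-04).

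The kinases that phosphorylate SR proteins split by member in K148R cells. SRPK1 was at 220.4, 209 and 214 CPM (parental), 140.4, 139.8 and 169.6 (K148Q) and 58.3, 59.3 and 64.0 (K148R). It fell in both mutants, in K148R cells by the most (log2 fold change -1.83 ± 0.076 SE, adjusted p = 1.7e-11). SRPK2 and CLK4 rose in K148R cells, SRPK2 from 35.4 ± 1.45 to 61.7 ± 2.83 CPM (log2 fold change 0.80 ± 0.069 SE, adjusted p = 6.4e-08) and CLK4 from 16.4 ± 1.00 to 37.1 ± 4.11 (log2 fold change 1.18 ± 0.11 SE, adjusted p = 9.9e-08). RBM17, a factor of 3′ splice site choice, fell from 168 ± 3.45 to 44.4 ± 2.67 CPM in K148R cells (log2 fold change -1.92 ± 0.062 SE, adjusted p = 9.4e-13), and RBM5 rose from 82.3 ± 4.81 to 156 ± 4.15 (log2 fold change 0.92 ± 0.069 SE, adjusted p = 1.2e-08). In K148Q cells RBM17 fell by less (-0.25, adjusted p = 0.0026). RBM5 and SRPK2 rose by less there (0.19 and 0.28, adjusted p = 0.028 and 0.0038). Of 10 genes of nonsense-mediated decay, which removes mRNAs with early stop codons, 5 rose and 3 fell in K148R cells and 4 rose and 3 fell in K148Q cells, counts near the all-gene shares for a group of this size (37.8% and 37.3% in K148R, 27% and 26.3% in K148Q). SMG5, of that group, and the assembly factor GEMIN4 rose in K148Q cells (log2 fold change 0.59 ± 0.07 SE, adjusted p = 7.3e-06, and log2 fold change 0.55 ± 0.07 SE, adjusted p = 1.4e-05). GEMIN4 fell in K148R cells (-0.54, adjusted p = 6.4e-06). The splicing regulators KHDRBS1 and RBM39 fell in K148Q cells (-0.59 and -0.42, adjusted p = 2.1e-07 and 7.3e-06). Both also fell in K148R cells (-0.49 and -0.22, adjusted p = 3.6e-07 and 0.0011). Gene counts do not show exon use, so splicing itself and mRNA forms that end in decay were not measured here.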

How the data were processed

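RNA from 9 libraries of MV4;11 cells was sequenced, 3 per MYC genotype, and the labels' genotype set the groups. The authors deposited raw counts per gene symbol, unnormalised, with a column per library. GRCh38, featureCounts 1.5.2, HISAT2 2.0.5 and FastQC 0.11.7 are listed in the submitters' processing notes, without options, strand or annotation. The test was edgeR 4.0.16 under R 4.3.3 on these counts: filterByExpr by group (12845 genes kept), TMM scaling, 1 robust quasi-likelihood fit over all 9 libraries with a term per genotype, and Benjamini-Hochberg adjustment over all tested genes, called at 0.05. SE is the log2 fold change divided by the square root of F. The common biological coefficient of variation was 0.0738. The fit was also run on simulated counts with 1 common spread for all genes and no library that stood apart, unlike these data. The outcome is not reported here. Alternatives were DESeq2 1.42.0, limma-voom (limma 3.58.1), other scalings and filters, fits of the compared groups only, a replicate block, and leaving out each library. Depth limits precision mostly for HNRNPH2, at 540 counts in all.

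The members and lists were chosen with earlier results of these data known. Values in all libraries are given for members called with at least a 1.5-fold change and for the member of each group with the highest CPM per kilobase of merged coding-transcript exons. Of the further list, the genes named are among the 3 with the smallest p in each direction or the largest changes of their group, and some that meet this rule are not reported here. Positions, lengths and GC content came from GENCODE v29 (GRCh38), and promoters from RefSeq (GRCh38.p14). Of the further list, 124 symbols had a row. For 1 of them, the older symbol NHP2L1, the row is named SNU13. SF3B14 is an older name of the member SF3B6.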

Additional observations from a re-analysis of the deposited data

How the results depend on the processing

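Of 3075 values of single members under an alternative, 0 were called in the opposite direction. In 50 a call was lost, each with a log2 fold change of at most 0.401 in size, and in 74 one was gained, 25 of them without K148Q replicate 3. A further 40 values that were called in neither fit changed sign, none above 0.15 in size. The 37 member values called with at least a 1.5-fold change were called in the same direction in all 664 alternatives that gave a value. Counts of members and of the further list stayed within 1.5 times of the values given, with a pair of exceptions in K148Q against parental cells, both without K148Q replicate 3. Members called higher there were 5 to 14 over the fits that left out 1 library, and genes of the further list called higher 20 to 41. Over those fits, members called lower in K148R against parental cells were 36 to 46. The 14 and the 46 came without K148Q replicate 3, where 32.4% of all genes were called higher in K148Q against parental cells. In that fit 40% of all genes were called lower in K148R against parental cells. With all libraries these shares were 27% and 37.3%. Scaling moved the median of all genes by less than 0.1 in each comparison. With the replicate number as a block, members called were 8 higher and 22 lower in K148Q against parental, 7 and 40 in K148R against parental, and 11 and 39 in K148R against K148Q cells. The share of all genes called in the block fit is not given, so these counts are not a result about the members. The numbers were not taken to pair the libraries, since the correlation of deviations between same-numbered libraries ran from -0.0237 to 0.269 and was over 0.1 in 2 of 9 pairs, and a library matched its own number best in 9 of 18 cases.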

Other observations

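Several rows related to the members fell outside the symbol rule. HNRNPA2B1, which binds RNA with HNRNPA1 in the core hnRNP particle and was on the further list, was at 1599.8, 1579 and 1648 CPM (parental), 1378, 1423 and 1658 (K148Q) and 854, 863 and 865 (K148R). It was lower in K148R than in parental cells (log2 fold change -0.90 ± 0.059 SE, adjusted p = 2.9e-09 by edgeR's quasi-likelihood test) and not called in K148Q cells (-0.11, adjusted p = 0.11). HNRNPU-AS1, a transcript named for its place beside HNRNPU, was chosen on its values and stood at 119, 126 and 124 CPM (parental), 43.7, 43.2 and 66.5 (K148Q) and 36.0, 42.8 and 41.3 (K148R). It fell in K148Q (log2 fold change -1.26 ± 0.14 SE, adjusted p = 1.7e-05) and K148R cells (log2 fold change -1.62 ± 0.14 SE, adjusted p = 7.0e-07), and whether counting used strand is unknown. The rows of the HNRNPA1 copies HNRNPA1P10 and HNRNPA1L2 held 10627 and 3866 counts in all, beside 152162 for HNRNPA1.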
